A study of Mus musculus with 19 samples.

Results

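The genes of 3 ligands and 5 receptors of the neurotrophin and GDNF (glial cell line-derived neurotrophic factor) families were followed through cell sorts of the cochlea, the organ of hearing, in mice. They are the ligand genes Bdnf, Ntf3 and Gdnf and the receptor genes Ntrk2, Ntrk3, Ngfr, Gfra1 and Ret. They were chosen by gene symbol from the deposited gene table, and all 8 were found among its 18639 genes and passed the filter on low values. The table holds 19 RNA-seq libraries, and a tissue isolate of 1 mouse counted as an independent sample. Every animal was a heterozygous CX3CR1 GFP knock-in mouse (CX3CR1 GFP/+), so the allele was shared by all groups, and GFP served as the handle for fluorescence-activated sorting. GFP-positive cells were called macrophages and GFP-negative cells nonmacrophages. Whole cochleae gave 4 old macrophage, 4 old nonmacrophage, 2 young macrophage and 4 young nonmacrophage libraries, with old mice aged 12 to 14 months and young mice 1.5 months. Young mice also gave 1 macrophage and 1 nonmacrophage library of the auditory nerve, 1 of each of the lateral wall, and 1 unsorted whole-cochlea library. Macrophages express Cx3cr1, the gene that carries GFP here, but so do monocytes and some lymphocytes, so the sort selects by that gene and not by cell identity.

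Neurotrophins are secreted proteins that bind Trk receptor tyrosine kinases, which signal survival and growth, and the pan-neurotrophin receptor encoded by Ngfr, which modifies that signal or acts alone. BDNF acts through TrkB (gene Ntrk2) and neurotrophin-3 through TrkC (gene Ntrk3), and both pairs are known for keeping the spiral ganglion neurons that connect hair cells to the brain alive. GDNF binds GFRα1, a membrane-anchored protein with no signalling domain, and the complex activates the receptor tyrosine kinase RET.

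In RefSeq promoter windows of build GRCm38.p6, which run from 250 bases before to 50 bases after a transcript start, 14 windows matched 6 of the 8 genes. Bdnf had 7 windows, Ntf3 and Gdnf had 2 each, and Ntrk2, Ngfr and Gfra1 had 1 each. Ntrk3 and Ret had none. In all, 3 motifs were searched on both strands: TGACG, the core of the cAMP response element, CACGTG, the E-box, and CCAAT, the CCAAT box. TGACG was in 20.8% of all 32851 windows, CACGTG in 7.15% and CCAAT in 37.4%. Among the 14 windows, TGACG was in 1 of Bdnf and 1 of Gdnf, CACGTG in 1 of Ntf3, and CCAAT in 1 each of Gdnf, Gfra1 and Ntf3. The 3 windows below are shown because they belong to the genes with the largest differences between sorts, with the matched letters in capitals. Each is read 5′ to 3′ on the strand of its gene. Bdnf lies at chr2:109692186-109692485 on the plus strand and shows TGACG as its reverse complement. Ntf3 lies at chr6:126166695-126166994 on the minus strand and shows CACGTG. Gfra1 lies at chr19:58455349-58455648 on the minus strand and shows CCAAT as its reverse complement. The letters are matches only, and factor binding was not measured.
Bdnf: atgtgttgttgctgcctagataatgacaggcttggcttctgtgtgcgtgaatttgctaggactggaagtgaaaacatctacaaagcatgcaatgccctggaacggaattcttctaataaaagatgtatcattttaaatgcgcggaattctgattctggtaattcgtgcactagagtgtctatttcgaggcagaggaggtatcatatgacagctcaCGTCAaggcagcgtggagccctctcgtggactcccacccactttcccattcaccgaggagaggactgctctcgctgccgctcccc
Ntf3: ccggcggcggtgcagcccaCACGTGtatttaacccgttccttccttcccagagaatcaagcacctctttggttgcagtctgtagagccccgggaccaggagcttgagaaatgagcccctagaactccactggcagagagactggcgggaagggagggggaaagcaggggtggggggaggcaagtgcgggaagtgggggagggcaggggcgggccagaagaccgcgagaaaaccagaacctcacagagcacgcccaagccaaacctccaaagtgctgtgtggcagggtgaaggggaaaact
Gfra1: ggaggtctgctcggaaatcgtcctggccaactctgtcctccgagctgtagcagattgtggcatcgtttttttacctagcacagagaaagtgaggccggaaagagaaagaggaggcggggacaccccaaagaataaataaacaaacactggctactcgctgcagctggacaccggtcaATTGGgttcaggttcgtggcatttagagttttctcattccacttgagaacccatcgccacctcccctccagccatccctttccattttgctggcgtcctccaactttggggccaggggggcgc

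In the mm10 build and its GENCODE annotation the genes lie at chr2:109674700-109727007 (Bdnf), chr6:126101412-126166910 (Ntf3), chr15:7810846-7837575 (Gdnf), chr13:58806569-59133970 (Ntrk2), chr7:78175959-78738012 (Ntrk3), chr11:95568818-95587735 (Ngfr), chr19:58235604-58455909 (Gfra1) and chr6:118151745-118197718 (Ret). How reads were counted per gene is not given in the sources used here. An antisense gene overlaps 14.41% of the annotated exon bases of Bdnf and 7.6% of those of Gfra1. The library kit does not mark strand, so reads of the pairs cannot be told apart.

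The libraries held 20.6 to 71.6 M reads in genes, and 3 reads were worth 1.38 to 5.33 normalized reads, the authors' unit of reads divided by a size factor. Old whole-cochlea libraries held 50.6 to 71.6 M reads, whereas the young sorted ones held 24.9 to 35.1 M, except young nonmacrophage replicate 14 with 60.2 M, and the young unsorted one 20.6 M. Depth and age thus nearly coincided, and their parts in the age comparisons cannot be told apart. Reads covered 16750 to 17282 genes in old macrophages and 11652 and 13532 genes in young macrophage replicates 9 and 15. All 6 macrophage markers were higher in macrophage than in nonmacrophage libraries at both ages. Their summed level was 83218 to 135400 normalized reads in old macrophages, against 552 to 1044 in old nonmacrophages. Neuron markers also ran with the macrophage sort: 8 of 10 were higher in old macrophages, with sums of 285586 to 482382, against 10917 to 18925 in old nonmacrophages. In young whole cochlea 7 of 10 were higher, with sums of 144999 and 255190 in macrophages, against 7612 to 32284 in nonmacrophages. Schwann and satellite glia markers ran the other way, with 5 of 8 lower in old macrophages (61956 to 154538 in old macrophages, against 219052 to 424953 in old nonmacrophages) and 7 of 8 lower in young ones (43901 and 53444 in young macrophages, against 327907 to 670106 in young nonmacrophages). Neither sort was free of markers of other cell types, and in such bulk samples fewer cells of a type and less RNA per cell cannot be told apart.

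**Figure D1:**
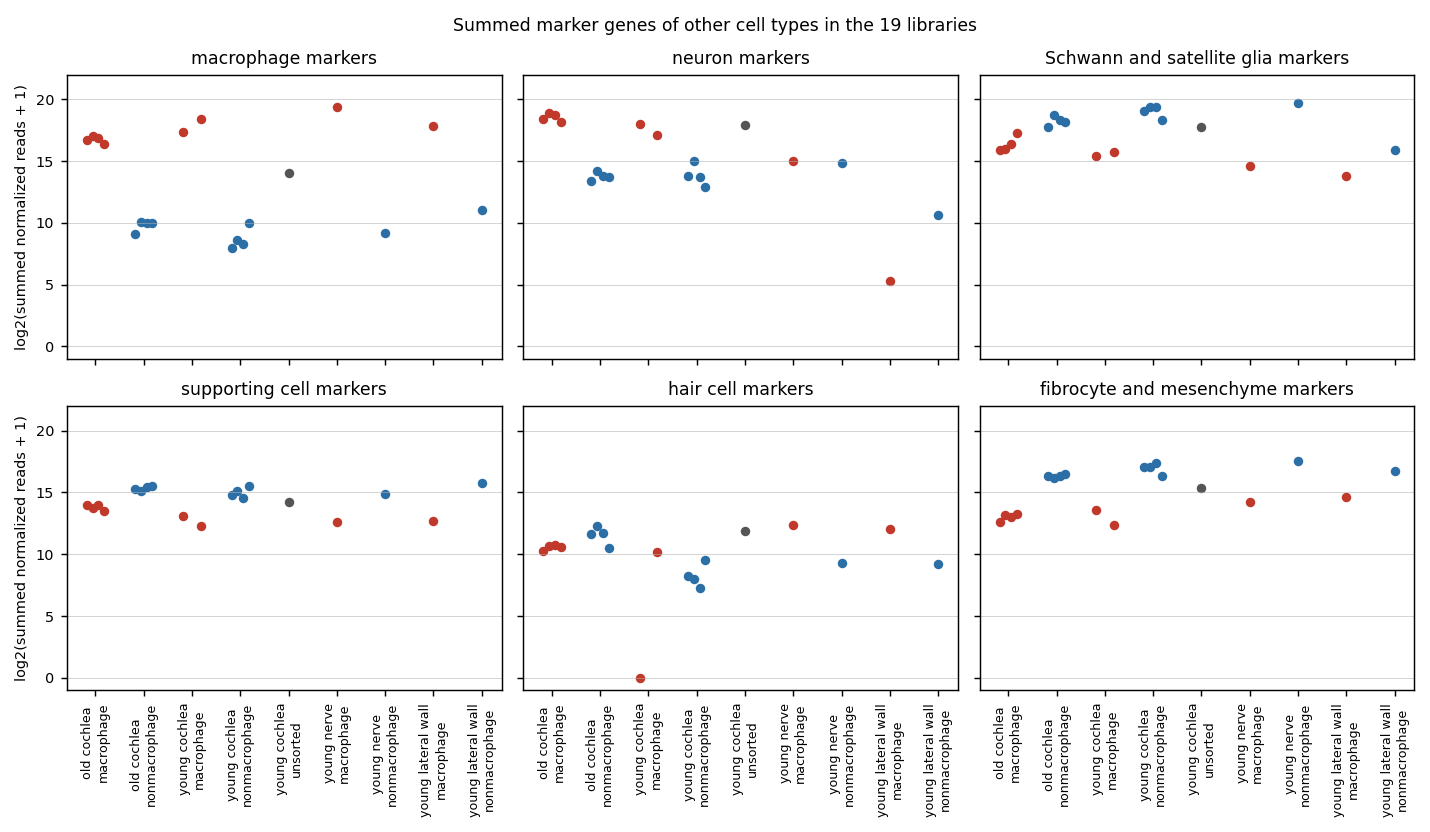
Summed marker genes, log2(summed normalized reads + 1), in each of the 19 libraries, with 1 point per library (red macrophage, blue nonmacrophage, grey unsorted). Macrophage markers separate the sorts, and in whole cochlea neuron markers are also higher in the macrophage libraries, with 285586 to 482382 normalized reads in old macrophages against 10917 to 18925 in old nonmacrophages.

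Both sorts held reads of every one of the 8 genes, but the ligands and the receptor gene Ret passed 3 reads less often in macrophage libraries. More than 3 reads of Ntf3 were found in 3 of 8 macrophage and 10 of 10 nonmacrophage libraries. Gdnf passed 3 reads in 4 of 8 macrophage and 7 of 10 nonmacrophage libraries, and Bdnf in 5 of 8 macrophage and 9 of 10 nonmacrophage libraries. In old whole cochlea Bdnf and Gdnf passed 3 reads in all 4 macrophage libraries. Among receptors, Ntrk2 passed 3 reads in all 18 sorted libraries and Gfra1 in all but 1. Ret passed in 5 of 8 macrophage and 10 of 10 nonmacrophage libraries. Ntrk3 passed in 7 of 8 macrophage and 10 of 10 nonmacrophage libraries, and Ngfr in 7 of 8 and 9 of 10. Counts of 3 reads or fewer are at the detection limit, and all such limits and intervals cover counting error only.

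Per kilobase of annotated exon, the receptor genes Gfra1 and Ntrk2 stood above all 3 ligands in each of the 4 sorted whole-cochlea groups. Gfra1 was highest in old macrophages (231 normalized reads per kb), old nonmacrophages (1488) and young nonmacrophages (787). Ntrk2 came next in these groups at 120, 188 and 143 normalized reads per kb. In young macrophages Ntrk2 led with 59.6 normalized reads per kb, followed by Ngfr with 57.2, and all 3 ligands were at 0. In old nonmacrophages Bdnf was the leading ligand with 64.0 normalized reads per kb, and in young nonmacrophages it was Ntf3 with 101. Ntrk3 has 30.2 kb of annotated exons, so its level per kb is low: it was 10.6 in old macrophages and 7.60 in old nonmacrophages.

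**Figure D2:**
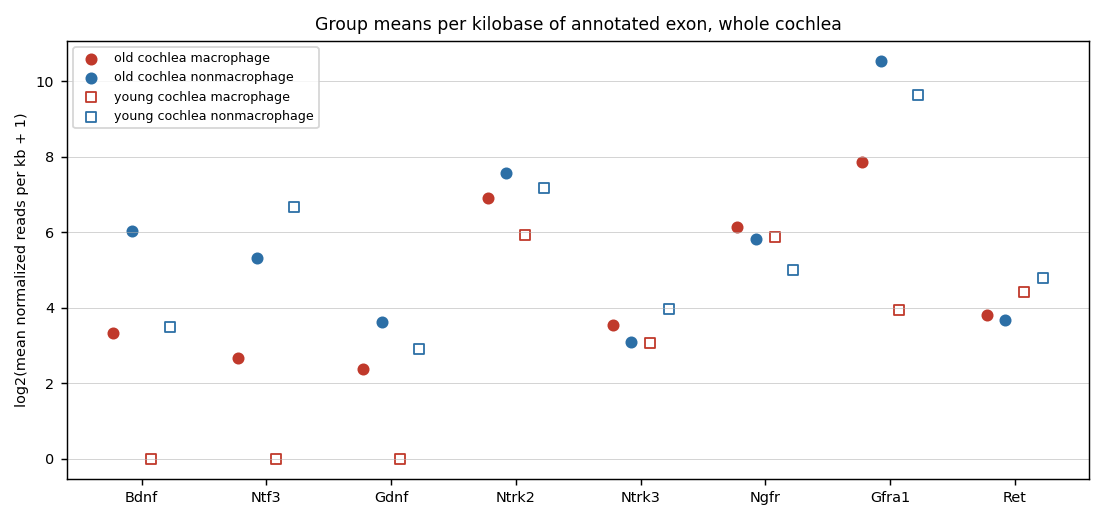
Mean normalized reads per kb of annotated exon, as log2(mean + 1), of the 8 genes in the 4 sorted whole-cochlea groups (red macrophage, blue nonmacrophage, filled old, open young). Gfra1 is the highest point in 3 groups, with 231 in old macrophages, 1488 in old nonmacrophages and 787 in young nonmacrophages.

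Which sort held each gene was tested in old and in young whole cochlea. In old mice 2 of 8 genes, Ntf3 and Ntrk2, were lower in macrophages than in nonmacrophages by limma (Benjamini-Hochberg adjusted p under 0.05), where 9.36% of all 18441 genes tested were lower. None was higher, where 9.25% of genes were. In 4 of 8 genes, Bdnf, Ntf3, Gdnf and Gfra1, every old macrophage library lay below every old nonmacrophage library, against 30.0% of all genes. The shared spread in this test includes the 2 young macrophage libraries, which differ from each other. With limma on the 8 old libraries alone, 5 of 8 genes were lower in macrophages (Bdnf, Ntf3, Gdnf, Ntrk2 and Gfra1), where 33.4% of genes were. In young mice 3 of 8 genes, Ntf3, Ntrk2 and Gfra1, were lower in macrophages, where 22.3% of genes were, and none was higher, where 9.18% were.

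**Figure D3:**
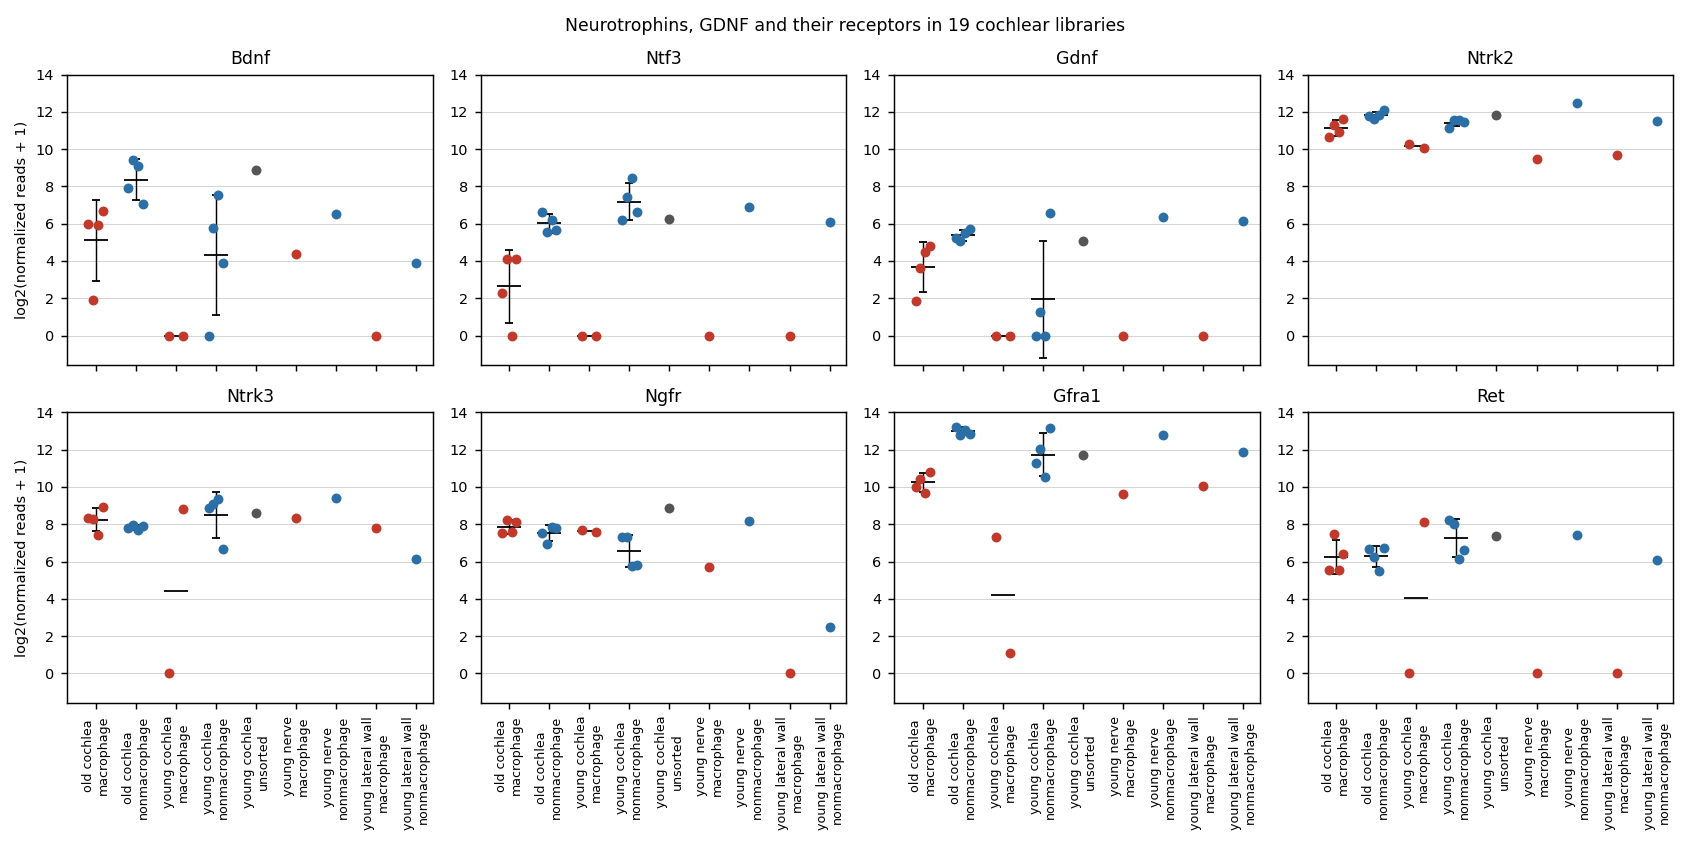
log2(normalized reads + 1) of each gene in each library, by group (red macrophage, blue nonmacrophage, grey unsorted); the horizontal line is the group mean and the bar, for groups of 4, is 1 SD. Bdnf, Ntf3 and Gdnf are at 0 in both young whole-cochlea macrophage libraries, and Gfra1 in old macrophages (826 to 1811 normalized reads) lies below old nonmacrophages (7134 to 9690).

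Bdnf, the ligand of TrkB, had 62.9, 2.72, 59.9 and 99.985 normalized reads in old macrophages (replicates 1, 7, 12 and 17), against 237, 674, 547 and 134 in old nonmacrophages (replicates 10, 11, 18 and 19). The groups did not overlap. The mean was 56.4 ± 40.1 normalized reads for old macrophages and 398 ± 254 for old nonmacrophages (SD, n = 4 each), a log2 difference of -3.25 ± 1.45 (SE) that missed the threshold (limma adjusted p = 0.149). On the 8 old libraries alone the same difference gave a limma adjusted p of 0.0151, and it also passed with array weights (0.00156) and, at -2.72, with a pseudocount of 10 (0.0474). In young mice Bdnf had 0 reads in both macrophage libraries, against 0, 54.5, 186 and 13.9 normalized reads in nonmacrophages (replicates 2, 5, 6 and 14). That is a level at least 14.7-fold lower in young macrophages, taking 3 reads per library as the floor. Without young nonmacrophage replicate 6, which carried most of the nonmacrophage level, the bound was 5.27-fold. The log2 difference of -4.31 ± 1.78 missed the threshold (limma adjusted p = 0.0805). Without young nonmacrophage replicate 2, which held no Bdnf reads, it was -5.75 and passed (limma adjusted p = 0.00899). It also passed with a pseudocount of 0.1 (limma adjusted p = 0.0475), with edgeR (adjusted p = 0.0356) and with DESeq2 (adjusted p = 0.000597). The unsorted young cochlea held 477 normalized reads of Bdnf, more than any sorted young library.

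Ntf3, the ligand of TrkC, had 3.85, 16.3, 0 and 16.5 normalized reads in old macrophages (replicates 1, 7, 12 and 17), against 97.2, 46.1, 72.8 and 49.4 in old nonmacrophages. The groups did not overlap, and 1 old macrophage library held no read. Ntf3 was 7.25-fold lower in old macrophages by group means, and the log2 difference was -3.38 ± 0.90 (SE; limma adjusted p = 0.0189). The call was lost without old macrophage replicate 1 or 12 or without old nonmacrophage replicate 10 or 18, with log2 differences of -3.31 to -2.50 and limma adjusted p of 0.0520 to 0.0597. It was also lost with edgeR on the recovered reads (-2.81, adjusted p = 0.0965) and with a pseudocount of 0.1 (-4.30, limma adjusted p = 0.0562). In young mice Ntf3 had 0 reads in both macrophage libraries, against 71.1, 173, 348 and 98.4 normalized reads in nonmacrophages. It was at least 39.9-fold lower in young macrophages, or 26.4-fold without young nonmacrophage replicate 6, with a log2 difference of -7.17 ± 1.10 (limma adjusted p = 0.000267). This call was lost with array weights, which weighted both young macrophage libraries down (limma adjusted p = 0.579). Ntf3 was the ligand read in every one of the 10 nonmacrophage libraries.

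Gdnf, the ligand of the GFRα1 and RET complex, had 2.57, 11.4, 21.2 and 26.8 normalized reads in old macrophages, against 36.9, 32.3, 44.5 and 51.0 in old nonmacrophages. The groups did not overlap. The mean was 15.5 ± 10.7 normalized reads for old macrophages and 41.2 ± 8.3 for old nonmacrophages (SD, n = 4 each), and the log2 difference of -1.69 ± 1.24 missed the threshold (limma adjusted p = 0.408), but passed on the 8 old libraries alone (limma adjusted p = 0.0379) and, at -1.62, with array weights (0.0191). In young mice it had 0 reads in both macrophage libraries, against 0, 1.36, 0 and 94.1 normalized reads in nonmacrophages. The young nonmacrophage signal was therefore in replicate 14, the deepest young library. The unsorted library held 32.1 normalized reads.

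Ntrk2, which encodes TrkB, was abundant in both sorts. It had 1628, 2531, 1942 and 3128 normalized reads in old macrophages, against 3513, 3125, 3580 and 4317 in old nonmacrophages. Old macrophage replicate 17 and old nonmacrophage replicate 11 nearly coincided, so the groups overlapped. Ntrk2 was 1.57-fold lower in old macrophages (log2 difference -0.69 ± 0.22, limma adjusted p = 0.0457). The call was lost without old macrophage replicate 1, 7 or 12 or without any 1 of the 4 old nonmacrophage libraries, with log2 differences of -0.76 to -0.54 and limma adjusted p of 0.0647 to 0.141. It was also lost with a common total (limma adjusted p = 0.106), with no variance trend (0.103), with the substructure libraries pooled in (0.150) and with edgeR (0.0873). In young mice Ntrk2 had 1223 and 1076 normalized reads in macrophages, against 2247, 3034, 2989 and 2788 in nonmacrophages. The groups did not overlap, and Ntrk2 was 2.40-fold lower in young macrophages (log2 difference -1.26 ± 0.27, limma adjusted p = 0.00351). The call was lost when the 6 young libraries were fitted alone, at the same difference (limma adjusted p = 0.102), and with array weights (0.662).

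Gfra1, which encodes the GDNF-binding receptor, had 1035, 1384, 826 and 1811 normalized reads in old macrophages, against 9690, 7134, 8548 and 7226 in old nonmacrophages. The groups lay far apart, at a 6.45-fold lower mean in old macrophages. The log2 difference of -2.74 ± 0.97 nevertheless missed the threshold in the main limma test on all 14 libraries (limma adjusted p = 0.0686). On the same 14 libraries the difference passed after quantile normalization (-2.97, limma adjusted p = 0.00585), with array weights (-2.93, 2.23e-08) and with a pseudocount of 10 (-2.73, 0.0132). It also passed with edgeR (adjusted p = 0.032) and DESeq2 (adjusted p = 0.00551), and in 9 of 27 alternative settings in all. It passed without young macrophage replicate 9 or replicate 15, with the same difference and limma adjusted p of 0.000583 and 0.000553, and on the 8 old libraries alone (limma adjusted p = 3.69e-06). In young mice Gfra1 had 156 and 1.13 normalized reads in macrophages, against 2448, 4164, 1464 and 9170 in nonmacrophages. The second macrophage value is 1 read, under the 3-read floor. The log2 difference was -7.55 ± 1.19 (limma adjusted p = 0.000347), and -10.65 without young macrophage replicate 9 and -4.44 without replicate 15. The young nerve and lateral wall macrophage libraries held 781 and 1072 normalized reads of Gfra1. With these in place of the young whole-cochlea macrophages, the log2 difference shrank to -1.90 and still passed the threshold.

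Ret, the signalling receptor for GDNF, did not separate the old sorts, with 45.5, 177, 45.6 and 82.9 normalized reads in old macrophages, against 99.6, 75.0, 43.4 and 104 in old nonmacrophages. The groups overlapped (log2 difference -0.03 ± 1.31, limma adjusted p = 0.993). In young mice Ret had 0 and 275 normalized reads in macrophages, against 293, 259, 70.2 and 97.3 in nonmacrophages. Macrophage replicate 9 lay below and replicate 15 within the nonmacrophage range, and the log2 difference of -3.19 ± 1.60 missed the threshold (limma adjusted p = 0.146). It was 0.86 without young macrophage replicate 9 and -7.25 without replicate 15, and of these passed in the second case (limma adjusted p = 5.36e-05). With the auditory nerve and lateral wall macrophages, neither of which held a Ret read, in place of the young whole-cochlea ones it was also -7.25 (limma adjusted p = 2.49e-05).

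Ntrk3, which encodes TrkC, had 320, 306, 171 and 485 normalized reads in old macrophages, against 225, 249, 202 and 241 in old nonmacrophages. The groups overlapped (log2 difference 0.39 ± 1.36, limma adjusted p = 0.899). In young mice it had 0 and 449 normalized reads in macrophage replicates 9 and 15, against 464, 545, 651 and 102 in nonmacrophages. The log2 difference of -4.09 ± 1.67 missed the threshold (limma adjusted p = 0.0775). It was 0.32 without macrophage replicate 9 and -8.50 without replicate 15 (limma adjusted p = 2.18e-06).

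Ngfr, the pan-neurotrophin receptor and a marker of non-myelinating Schwann cells, had 182, 303, 192 and 282 normalized reads in old macrophages, against 187, 120, 228 and 223 in old nonmacrophages. The groups overlapped (log2 difference 0.34 ± 0.53, limma adjusted p = 0.746). In young mice it had 207 and 187 normalized reads in macrophages, against 156, 159, 53.8 and 55.6 in nonmacrophages. Here both macrophage libraries lay above all 4 nonmacrophage libraries, as 10.5% of all genes did, but the log2 difference of 1.07 ± 0.65 missed the threshold (limma adjusted p = 0.225). It passed at 2.20 after quantile normalization (limma adjusted p = 0.0432), and with the substructure macrophages in place of the young whole-cochlea ones it turned to -3.70 (limma adjusted p = 0.0226). Ret, Ntrk3 and Ngfr are known in neurons and glia. In whole cochlea the summed neuron markers were higher and the Schwann and satellite glia markers lower in the macrophage libraries at both ages. The part of those cells in the levels of the 8 genes was not tested.

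**Figure D4:**
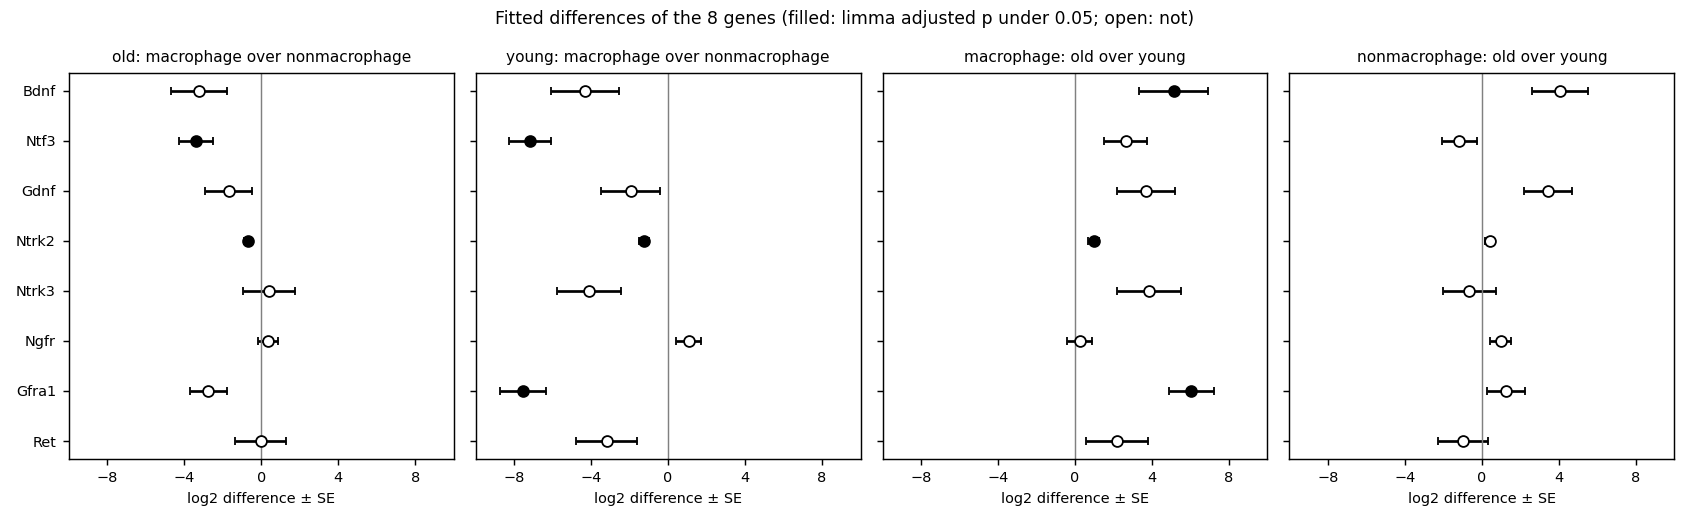
Log2 difference ± SE from limma for the 8 genes in 4 whole-cochlea comparisons, each first-named group over the second (filled points limma adjusted p under 0.05). Ntf3 and Ntrk2 are lower in macrophages at both ages, Gfra1 is lower in young macrophages (-7.55), and Bdnf, Ntrk2 and Gfra1 are higher in old than in young macrophages.

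The age comparison of macrophages uses the same 2 young macrophage libraries as the young sort comparison. In old macrophages 3 of 8 genes were higher than in young ones, Gfra1, Bdnf and Ntrk2, where 24.1% of all genes were higher, and none was lower, where 5.57% were. In 4 of 8, Bdnf, Gdnf, Ntrk2 and Gfra1, every old library lay above both young ones, as it did in 31.7% of all genes. With the deposited scaling the median log2 difference of all genes tested was 0.88, against 3.16 for the 8 genes. Of these, Bdnf, Gdnf and Ntf3 had no reads in either young library, and Ntrk3 and Ret had none in young macrophage replicate 9. The Gfra1 mean was 1264 ± 431 normalized reads in old macrophages (SD, n = 4), against 78.7 ± 110 in young ones (SD, n = 2), a log2 difference of 6.05 ± 1.19 (limma adjusted p = 0.00241). The old libraries held 826 to 1811 and the young ones 156 and 1.13, and the log2 difference was 9.15 without young macrophage replicate 9 and 2.95 without replicate 15, both past the threshold. Bdnf was at least 13.0-fold higher in old macrophages, with a log2 difference of 5.12 ± 1.78 (limma adjusted p = 0.0455). This call was lost on leaving out any 1 of 11 of the 14 libraries, namely old macrophage replicates 1, 12 and 17, young macrophage replicates 9 and 15, old nonmacrophage replicates 10, 11, 18 and 19, and young nonmacrophage replicates 5 and 14, with log2 differences of 4.61 to 5.12 and limma adjusted p of 0.0503 to 0.128. It was also lost when the macrophage libraries were fitted alone (limma adjusted p = 0.0502), with no variance trend (0.0535), with a pseudocount of 10 (0.129) and with array weights (0.827). The Ntrk2 mean was 2307 ± 663 normalized reads in old macrophages, against 1150 ± 104 in young ones, 2.01-fold higher (log2 difference 0.96 ± 0.27, limma adjusted p = 0.0186), which is close to the median of all genes. Without young macrophage replicate 15 its log2 difference was 0.87 (limma adjusted p = 0.0518), and the call was also lost when the macrophage libraries were fitted alone (limma adjusted p = 0.0758) and with array weights (0.845). Array weights ended the Gfra1 call too (5.88, limma adjusted p = 0.0833).

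After quantile normalization, which put the median of all genes at -0.07 in this comparison, Gfra1 was still higher in old macrophages at 3.34 (limma adjusted p = 0.0129) and Ntrk2 at 0.92 (limma adjusted p = 0.0315), whereas Bdnf stood at 2.14 (limma adjusted p = 0.323). The other 5 genes missed the threshold with the deposited scaling. Gdnf had a log2 difference of 3.69 ± 1.52 (limma adjusted p = 0.0814), Ntf3 2.63 ± 1.10 (0.0856) and Ntrk3 3.83 ± 1.67 (0.0965). Ret stood at 2.18 ± 1.60 (0.313) and Ngfr at 0.25 ± 0.65 (0.802). By group means Ret was instead lower in old macrophages, at 87.7 normalized reads against 138 in young ones. Leaving out young macrophage replicate 9 turned Ntrk3 to -0.58 and Ret to -1.87, and leaving out replicate 15 gave 8.24 and 6.24, both past the threshold (limma adjusted p = 3.33e-06 and 0.000228). Gdnf passed without young nonmacrophage replicate 14 at the same difference (limma adjusted p = 0.00493), and Ntf3 passed without old macrophage replicate 12 at 3.51 (limma adjusted p = 0.0188). Both passed with a pseudocount of 0.1 (limma adjusted p = 0.0344 for Gdnf and 0.0430 for Ntf3) and with DESeq2 (0.0381 and 0.0199), and Gdnf when the macrophage libraries were fitted alone (0.0374). With the auditory nerve and lateral wall macrophages in place of the young whole-cochlea ones, the calls of Gfra1 (0.40, limma adjusted p = 0.612) and Bdnf (2.93, 0.266) ended, whereas Ngfr (5.02, 0.00542) and Ret (6.24, 0.000147) passed, higher in old macrophages. With these libraries pooled with the whole-cochlea ones, Gfra1 (3.23, limma adjusted p = 0.0934) and Bdnf (4.03, 0.0709) missed the threshold and Ntf3 (2.63, 0.0399) and Ret (4.21, 0.0432) passed. Markers of several other cell types also moved with this comparison, where 24.1% of all genes were higher and 5.57% lower. In old macrophages 6 of 8 Schwann and satellite glia, 4 of 7 supporting cell and 3 of 5 hair cell markers were higher. So were 3 of 10 neuron, 2 of 5 oligodendrocyte and 2 of 6 fibrocyte and mesenchyme markers. Hair cell sums were 1229 to 1710 normalized reads in old macrophages, against 0 and 1171 in young ones, where 4 of the 5 markers had no reads. In the young nerve and lateral wall macrophage libraries the hair cell sums were 5275 and 4227. Of the lymphocyte markers 3 of 4 were lower in old macrophages, with sums of 37.0 to 125 in old against 1797 and 7855 normalized reads in young macrophages. Pericyte and smooth muscle markers were lower in 3 of 5. The part of these cell types in the differences was not tested.

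In nonmacrophages no gene of the 8 passed the age test by limma, where 1.72% of all genes did, and none passed with edgeR or DESeq2 on the recovered reads. Bdnf and Gdnf had unadjusted limma p under 0.05. Bdnf averaged 398 ± 254 normalized reads in old nonmacrophages and 63.6 ± 84.8 in young ones (SD, n = 4 each), 6.26-fold apart, or 17.5-fold without young nonmacrophage replicate 6, with a log2 difference of 4.06 ± 1.45 (limma adjusted p = 0.135). The ranges overlapped, since old nonmacrophage replicate 19 (134) lay below young replicate 6 (186). Hair cell markers moved the same way, with 4 of 5 higher in old nonmacrophages and sums of 1467 to 5046 in old against 153 to 726 normalized reads in young nonmacrophages. The young unsorted cochlea, 1 library, held 477 normalized reads of Bdnf, above the old mean, and a hair cell sum of 3755, within the old range. The part of hair cells in the Bdnf difference was not tested. Gdnf differed by 3.43 ± 1.24 on the log2 scale (limma adjusted p = 0.137) and passed without young nonmacrophage replicate 14, at 4.97 (limma adjusted p = 0.00107). Ntf3 leaned the other way, with 66.4 ± 23.7 normalized reads in old nonmacrophages and 173 ± 124 in young ones (log2 difference -1.17 ± 0.90, limma adjusted p = 0.454).

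The difference between the sorts was not shown to change with age for any of the 8 genes by limma (7.94% of all genes passed). Unadjusted p was under 0.05 for 2, Gfra1 with an interaction of 4.81 ± 1.54 on the log2 scale (limma adjusted p = 0.0795) and Ntf3 with 3.79 ± 1.42 (limma adjusted p = 0.134). edgeR called none and DESeq2 called Ntf3 (6.495, adjusted p = 0.0113). Gfra1 passed without young macrophage replicate 9, at 7.91 (limma adjusted p = 2.61e-05), and Ntf3 passed without old macrophage replicate 12, at 4.67 (limma adjusted p = 0.0334). With the substructure macrophages as the young ones, Gfra1 turned to -0.84 (limma adjusted p = 0.402) and Ntrk2 passed at 1.16 (0.0265).

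The auditory nerve, which holds the spiral ganglion neurons and their glia, and the lateral wall, which holds the stria vascularis and spiral ligament, were each read in 1 macrophage and 1 nonmacrophage library of young mice. These differences have no replicate check. In the nerve 7 of 8 genes were at least 4-fold lower in the macrophage library on the log2(value + 1) scale, where 22.5% of all genes were. Ntf3, Gdnf and Ret had no reads in the nerve macrophage library, against 119, 79.7 and 172 normalized reads in the nerve nonmacrophage library, and so were at least 24.0-fold, 16.1-fold and 34.7-fold lower. Bdnf had 19.8 normalized reads in the macrophage library, against 90.9 in the nonmacrophage library, a ratio of 0.218 (95% exact interval 0.107 to 0.407). Ngfr had 51.2 normalized reads in the macrophage library, against 289.5 in the nonmacrophage library (ratio 0.177, interval 0.117 to 0.259). In macrophages against nonmacrophages of the nerve, Ntrk2 had 712 against 5580 normalized reads (ratio 0.128, interval 0.115 to 0.141) and Gfra1 781 against 6972 (ratio 0.112, interval 0.102 to 0.123). Ntrk3 was the gene short of 4-fold, with 322 normalized reads in the macrophage library against 680 in the nonmacrophage library (ratio 0.474, interval 0.399 to 0.561).

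In the lateral wall 5 of 8 genes were at least 4-fold lower in the macrophage library on the log2(value + 1) scale, where 18.3% of all genes were, but 2 of them, Bdnf and Ngfr, passed through the added 1 alone. All 5, Bdnf, Ntf3, Gdnf, Ngfr and Ret, had no reads there, against 13.8, 67.3, 70.3, 4.59 and 65.8 normalized reads in the nonmacrophage library. Against the 3-read floor 3 genes were past 4-fold: Ntf3 was at least 14.6-fold, Gdnf at least 15.3-fold and Ret at least 14.3-fold lower. Bdnf was at least 3.00-fold lower, and for Ngfr both libraries were at or under the floor. Ntrk3 ran the other way, with 222 normalized reads in the macrophage library against 68.8 in the nonmacrophage library (ratio 3.23, interval 2.30 to 4.62). In lateral wall macrophages against nonmacrophages, Ntrk2 had 813 against 2922 normalized reads and Gfra1 1072 against 3686, 3.59-fold and 3.44-fold lower in macrophages. Among the 10 neuron markers, 5, Nefl, Nefm, Tubb3, Prph and Slc17a7 were at 0 in the lateral wall macrophage library, and the neuron sum was 38.3 normalized reads there, against 1600 in the lateral wall nonmacrophage library. In the nerve the neuron sum was 33770 in the macrophage library and 29335 in the nonmacrophage library.

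**Figure D5:**
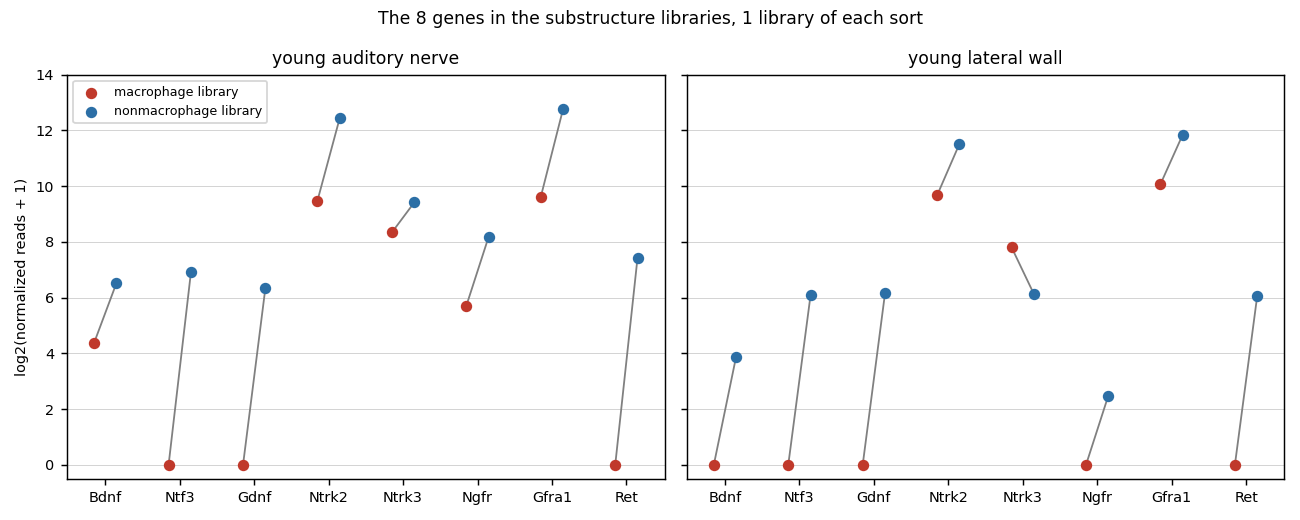
log2(normalized reads + 1) of the 8 genes in the substructure libraries of young mice (nerve left, lateral wall right), with the macrophage library (red) left of the nonmacrophage library (blue) for each gene. Ntrk3 in the lateral wall, with 222 normalized reads in macrophages against 68.8 in nonmacrophages, is the pair in which the macrophage library is higher.

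Between the nonmacrophage libraries of these tissues, 3 of 8 genes were at least 4-fold higher in the auditory nerve than in the lateral wall, where 10.2% of all genes were, and none was lower. Ngfr had 289.5 normalized reads in the nerve against 4.59 in the lateral wall (207 against 3 reads), a ratio with an exact interval of 21.3 to 308. For nerve against lateral wall, Ntrk3 had 680 against 68.8 (ratio 9.88, interval 7.27 to 13.7), and Bdnf 90.9 against 13.8 (ratio 6.605, interval 3.27 to 15.1). Gdnf had 79.7 in the nerve against 70.3 in the lateral wall (interval of the ratio 0.755 to 1.71). Summed Schwann and satellite glia markers were 873563 in the nerve against 61531 normalized reads in the lateral wall, and neuron markers 29335 in the nerve against 1600 in the lateral wall. Their part in the 3 differences was not tested.

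Ordered by group mean, Gfra1 ran from old nonmacrophages (8150 normalized reads) through nerve nonmacrophages (6972), young nonmacrophages (4311), lateral wall nonmacrophages (3686) and the unsorted cochlea (3372) to old macrophages (1264), lateral wall macrophages (1072), nerve macrophages (781) and young macrophages (78.7). The young nonmacrophage range of 1464 to 9170 covered both of its neighbours in this order. Ntrk2 was highest in nerve nonmacrophages (5580), followed by old nonmacrophages (3634) and the unsorted cochlea (3573), which did not differ beyond their spread, and lowest in nerve macrophages (712). For Ntf3 all 5 nonmacrophage and unsorted groups, at means of 66.4 to 173 normalized reads, lay above all 4 macrophage groups, at 0 to 9.16.

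Other ligands and receptors of these families, co-receptors, processing enzymes, adaptors, kinases and activity-response genes made up 70 listed genes, of which 68 were tested. In old macrophages against old nonmacrophages 8 of 68 were higher and 12 lower, where 9.25% of all genes were higher and 9.36% lower (median log2 difference -0.41, against -0.19 over all genes). In young macrophages against young nonmacrophages 8 were higher and 18 lower, where 9.18% and 22.3% of all genes were (median -1.33, against -0.61). In old against young macrophages 26 were higher and 2 lower, where 24.1% and 5.57% were (median 1.31, against 0.88). In old against young nonmacrophages 2 were higher and none lower, where 1.72% of all genes passed in either direction.

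Of the 15 listed receptors tested, 7 were lower and 1 was higher in old macrophages, where 9.36% of all genes were lower and 9.25% higher. These receptors made up 8 of the 20 listed genes called in that comparison. Tnfrsf19, a receptor related to Ngfr, had 806 ± 156 normalized reads on average in old macrophages, against 7086 ± 702 in old nonmacrophages (mean ± SD of 4 libraries each, as for the genes that follow; log2 difference -3.15, limma adjusted p = 0.0324), a call lost on leaving out any 1 of the 8 old libraries (limma adjusted p of 0.0599 to 0.0776) and with a pseudocount of 0.1 (0.160). Sort1, which encodes sortilin, the co-receptor that binds proneurotrophins with the Ngfr product, averaged 2585 ± 243 in old macrophages against 5874 ± 379 in old nonmacrophages (limma adjusted p = 0.00116). Sorcs2, a sortilin relative, averaged 72.3 ± 53.4 in old macrophages against 373 ± 90.5 in old nonmacrophages (limma adjusted p = 0.0113), and Gfra2, the neurturin receptor, 19.3 ± 15.9 in old macrophages against 97.2 ± 16.0 in old nonmacrophages (limma adjusted p = 0.0184). Sorcs1 (log2 difference -1.73) and the Ngfr-like Nradd (-1.34) were also lower in old macrophages. The calls were lost on leaving out any 1 of all 8 old libraries for Nradd, of 6 for Sorcs1 (all but old macrophage replicate 17 and old nonmacrophage replicate 10), and of 4 for Gfra2 (old macrophage replicates 12 and 17, old nonmacrophage replicates 10 and 11), with limma adjusted p of 0.0515 to 0.110. With edgeR the calls of Gfra2 (adjusted p = 0.0520) and Nradd (0.0511) were lost, and with the substructure macrophages as the young ones that of Gfra2 (limma adjusted p = 0.0567). Pooling the substructure libraries into the fit ended the calls of Tnfrsf19, Sorcs2, Gfra2, Sorcs1, Nradd, Rtn4r, Vgf and Ndn (limma adjusted p of 0.0634 to 0.622). Rtn4r, the Nogo receptor, was higher in old macrophages at 125 ± 23.2 against 12.7 ± 6.24 in old nonmacrophages (limma adjusted p = 0.0179), a call lost without old nonmacrophage replicate 10 (limma adjusted p = 0.0642). The neuropeptide precursor gene Vgf, a textbook BDNF target, averaged 299 ± 163 in old macrophages and 7.40 ± 3.83 in old nonmacrophages (log2 difference 5.17, limma adjusted p = 0.00330), and the adaptor gene Ndn 8326 ± 1213 in old macrophages against 2550 ± 319 in old nonmacrophages (limma adjusted p = 0.00190). In the same comparison 8 of 10 neuron markers were higher in old macrophages. The part of neurons in the Rtn4r, Vgf and Ndn differences was not tested, nor was a response to BDNF.

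In young mice Tnfrsf19 (log2 difference -8.71), Sorcs2 (-7.43), Gfra2 (-5.76), Sort1 (-1.40), Nradd (-1.66), Ncam1 (-2.05), which encodes a GDNF-binding adhesion molecule, and the ligand gene Ntf5 (-3.36) were lower in macrophages, as was the immediate early gene Arc (-6.65). Vgf (5.52) and the adaptor genes Sh2b2 (8.09) and Dok5 (5.03) were higher in macrophages. With the substructure macrophages in place of the young whole-cochlea ones, Vgf (-0.26), Dok5 (-1.80), Sorcs2 (0.40) and Arc (0.77) changed sign. When the 6 young libraries were fitted alone, 7 of these 11 calls, those of Vgf, Dok5, Arc, Sort1, Nradd, Ncam1 and Ntf5, were lost (limma adjusted p of 0.0855 to 0.208). Quantile normalization ended the calls of Gfra2 (-0.91, limma adjusted p = 0.485) and Nradd (-1.21, 0.123) and put Ntf5 at 0.70 (0.503), and array weights ended 10 of the 11, all but that of Tnfrsf19. Leaving out young macrophage replicate 15 ended the calls of Dok5 (4.11) and Nradd (-1.32), and the Nradd call was also lost without young nonmacrophage replicate 6 (-1.49), and leaving out young macrophage replicate 9 ended that of Ncam1 (-1.11). Between ages, old macrophages were higher than young ones in Arc (8.75), Lingo1 (7.56), Tnfrsf19 (6.43), Sorcs2 (5.83), the GDNF-family ligand genes Artn (4.79) and Pspn (3.21), Sorl1 (3.58), Ntf5 (2.13), Ncam1 (2.03) and Kidins220 (1.14), which encodes a Trk-binding scaffold. They were lower in the signalling genes Nras (-1.25) and Mapk3 (-0.77). With the substructure macrophages as the young ones 8 of these 12 calls ended, those of Arc (1.33, limma adjusted p = 0.482), Tnfrsf19 (0.50, 0.322), Artn (2.09, 0.232), Pspn (0.83, 0.654), Sorl1 (0.41, 0.699), Kidins220 (0.88, 0.0552), Mapk3 (-0.08, 0.828) and Sorcs2, which turned to -1.997 (0.0503). After quantile normalization Artn (1.54, limma adjusted p = 0.111), Pspn (0.058, 0.966) and Mapk3 (-0.46, 0.118) missed the threshold and Ntf5 was lower in old macrophages at -2.55 (0.0233), and array weights ended 11 of the 12 calls, all but that of Tnfrsf19. With edgeR 3 of the 12, Sorl1, Ntf5 and Mapk3, missed the threshold (adjusted p of 0.0524 to 0.0976), as did Sorl1, Ntf5 and Kidins220 when the macrophage libraries were fitted alone (limma adjusted p of 0.0702 to 0.143). Without young macrophage replicate 9 the calls of Sorl1 (1.47), Ncam1 (1.10), Ntf5 (1.34), Pspn (3.21) and Mapk3 (-0.87) were lost, and without replicate 15 those of Kidins220 (0.47), Pspn (3.21) and Mapk3 (-0.68). Kidins220 was also lost without old macrophage replicate 7 or 12, Mapk3 without old macrophage replicate 1, 12 or 17, and Ntf5 without any 1 of the 8 old libraries. In nonmacrophages Artn averaged 61.3 ± 33.0 normalized reads in old mice and 1.47 ± 2.94 in young mice (log2 difference 5.11, limma adjusted p = 0.00231), and Sh2b2 72.2 ± 14.2 in old mice and 11.5 ± 23.0 in young mice (limma adjusted p = 0.0461), a Sh2b2 call lost on leaving out any 1 library but young macrophage replicates 9 and 15 and young nonmacrophage replicate 14. With edgeR neither passed (adjusted p = 0.0956 for Artn and 0.280 for Sh2b2), and Sh2b2 missed the threshold with DESeq2 too (adjusted p = 0.135).

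For each gene the 3 genes of most like pattern were named by the root mean square (RMS) difference of mean-centred log2(value + 1) over the 19 libraries, among 14335 genes. The values are descriptions over libraries that share sort, age and depth. Ntrk2 had the closest neighbours, Prnp (0.34), Fntb (0.40) and Palm (0.40), against a median of 1.44 over all genes compared. Gfra1 was nearest to Tgfbr3 (0.69), Megf9 (0.72) and Plod2 (0.77), where the median was 2.84. Bdnf was nearest to Dynlrb2 (1.13), Cabp2 (1.15) and Maats1 (1.29), where the median was 3.19. Ntf3 lay nearest to Lrrc18 (0.82), Gdnf to Ttpa (0.73), Ntrk3 to Zfp563 (0.70), Ngfr to Fam19a5 (0.89) and Ret to Zc3h12b (0.93).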

How the data were processed

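RNA-seq was made from sorted cells of cochlea with the SMARTer Ultra and Nextera XT kits, per the labels, which also state that a subset of libraries was sequenced a second time. The submitters' processing notes name mm10, TopHat2, Partek and DESeq2, with no versions. The authors deposited 1 table of signal per gene, reads divided by a size factor per library; of its values, 99.89% gave whole reads within 0.1 read, and 100% of those under 10000 reads did. Depth and floors come from these recovered reads.

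The main test was limma 3.58.1 (trend, robust; R 4.3.3) on log2(value + 1) with 1 mean for each of the 4 whole-cochlea groups (14 libraries), on genes that reached a value of 1 in 2 or more of them, and Benjamini-Hochberg adjusted p under 0.05. A fold change on this scale is shrunk for genes with few reads. Where 1 library of a group is at or near 0, the log2 difference can also exceed or oppose the ratio of means. In old against young macrophages that ratio was 1.43 for Ntrk3, 16.1 for Gfra1 and 0.637 for Ret. The log2 differences were 3.83, 6.05 and 2.18. The fit was run on simulated counts with the same dispersion in every library. Groups of unlike spread, as in these data, were not simulated. edgeR 4.0.16 and DESeq2 1.42.0 were run on the recovered reads as alternatives, beside other scalings, filters, pseudocounts, array weights, fits on the groups compared alone (in every comparison but the interaction), fits with the substructure libraries pooled in or, added after seeing the data, with their macrophages as the young ones, and leaving out each library. edgeR called 3006, 5013, 3815 and 3 genes in the old sort, young sort, macrophage age and nonmacrophage age comparisons. Replicate pairs differed beyond sampling noise, so none was merged. Single substructure libraries were compared by ratio with 95% exact conditional intervals.

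Named genes were all 8 members, the 3 largest called changes per direction among listed pathway genes with a mean of at least 20, every called listed ligand and receptor, and 3 nearest genes by pattern. Levels per kb used the union of annotated exons (GENCODE M21). The members and lists were chosen with earlier results of these data known. The values of 1 listed pathway gene that the naming rule chose are not reported here.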

Additional observations from a re-analysis of the deposited data

Results flagged for a closer look

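In young nonmacrophages Gdnf had 94.1 normalized reads in replicate 14 and 0 to 1.36 in the other 3 libraries, and the gap to the nearest was 0.986 of the group's range. That library held 60.2 M reads in genes, against 24.9 to 35.1 M in the other young sorted whole-cochlea libraries and 20.6 M in the unsorted one. The young nerve and lateral wall nonmacrophage libraries, at 26.4 and 21.5 M reads, held 57 and 46 reads of Gdnf. The part of depth was not tested. Among 24 groups of 4 values looked at, chance marks about 5%, and this was the single value marked.

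The sort difference in the old minus that in the young passed the limma interaction test for 3 listed receptors, where 7.94% of all genes passed: 2.76 on the log2 scale for Ncam1 (adjusted p = 0.00980), 4.74 for Sorcs2 (adjusted p = 0.0103) and 5.56 for Tnfrsf19 (adjusted p = 0.0345). The log2 difference of macrophages from nonmacrophages was 0.71 in the old and -2.05 in the young for Ncam1, -2.69 and -7.43 for Sorcs2, and -3.15 and -8.71 for Tnfrsf19. The Tnfrsf19 call was lost on leaving out any 1 of 10 libraries, with limma adjusted p of 0.0549 to 0.0673, after quantile normalization (3.75, adjusted p = 0.0604), with no variance trend (0.0513), with a pseudocount of 0.1 (0.0678) and with edgeR (0.0586). The Sorcs2 call was lost after quantile normalization (1.88, limma adjusted p = 0.344) and with a pseudocount of 10 (1.72, 0.245). With the substructure macrophages as the young ones Sorcs2 turned to -3.08 (limma adjusted p = 0.0303) and Tnfrsf19 to -0.36 (0.604), and with the substructures pooled in neither passed (0.775 and 0.478). Array weights ended all 3 calls (limma adjusted p of 0.0518 to 0.805).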

How the results depend on the processing

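No paired analysis was possible because each replicate number occurs once in the series. Of the 8 genes, the number called in old macrophages against old nonmacrophages was 2, and it was 1 with a common total, with no variance trend, with a pseudocount of 0.1, with substructures pooled and with edgeR, 5 with array weights and with the groups compared alone, 4 with a pseudocount of 10, and 0 to 3 on leaving out 1 library. In the young sort comparison it was 3, and 1 with array weights, 5 with substructure macrophages (added after seeing the data), 5 with DESeq2 and 3 to 5 on leaving out 1 library. In old against young macrophages it was 3, and 0 with array weights, 5 with a pseudocount of 0.1, 5 with DESeq2 and 2 to 3 on leaving out 1 library. In nonmacrophages it was 0, and 0 to 1 on leaving out 1 library. For the interaction it was 0, and 2 with substructure macrophages, 1 with DESeq2 and 0 to 2 on leaving out 1 library. In the lateral wall it was 5, and 3 with a pseudocount of 10. Some settings changed which genes were called. In the old sort comparison the gene called with edgeR was Gfra1. Gfra1 also joined Ntf3 and Ntrk2 after quantile normalization, with DESeq2 and with substructure macrophages. In the young sort comparison Bdnf was gained with edgeR and with a pseudocount of 0.1, Ngfr after quantile normalization and Ret with substructures pooled. Ntrk2 was lost there with the groups compared alone. The cause of these changes was not tested. Array weights were 0.0666 for each young macrophage library.

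Signs turned as follows. Ret in the old sort comparison was 0.10 after quantile normalization, 0.040 with a common total, 0.18 with edgeR, 0.12 with DESeq2 and -0.45 to 0.20 without single libraries (0.20 without old macrophage replicate 1 and 0.20 without replicate 12, 0.09 without old nonmacrophage replicate 10, 0.11 without replicate 19). In the young sort comparison, Ntrk3 ran from -8.50 to 0.32 and Ret from -7.25 to 0.86 without single libraries, both positive without young macrophage replicate 9. Ngfr was -0.91 with substructures pooled and -3.70 with substructure macrophages, which also gave Vgf -0.26, Dok5 -1.80, Sorcs2 0.40 and Arc 0.77, and quantile normalization gave Ntf5 0.70. In old against young macrophages quantile normalization gave Ntf3 -0.27, Ngfr -1.001, Ret -0.11 and Ntf5 -2.55. Without single libraries Ntrk3 ran from -0.58 to 8.24 and Ret from -1.87 to 6.24, both negative without young macrophage replicate 9. Ret was -0.62 with edgeR and -0.70 with DESeq2, and Sorcs2 -1.997 with substructure macrophages, which for the interaction gave Gfra1 -0.84, Tnfrsf19 -0.36 and Sorcs2 -3.08.

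Of the named pathway genes, pooling the substructure libraries ended 3 of 11 calls in the young sort comparison and 6 of 12 in old against young macrophages, where no variance trend ended 2, a pseudocount of 10 ended 2, a pseudocount of 0.1 ended 1 and a common total ended 1. DESeq2 gave Sorl1 no adjusted p there.

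Scaling moved all genes: in old against young macrophages 81.2% of the called genes were higher (median 0.88), against 50.2% after quantile normalization (median -0.07), 71.7% with edgeR and 67.5% with DESeq2. In the young sort comparison 29.1% were higher, against 45.8% after quantile normalization. In nonmacrophages 95.3% of 318 calls were higher, against 31.4% of 1659 with DESeq2.

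Over all genes, without counting single libraries left out, the alternatives called 1877 to 11167 genes in the old sort comparison (3431 in the main test), 575 to 6943 in the young one (5814), 362 to 5974 in old against young macrophages (5468), 3 to 1659 in nonmacrophages (318) and 148 to 4165 for the interaction (1464). Low ligand counts set the depth limit, since 3 reads were worth up to 5.33 normalized reads.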
